A study of Mus musculus with 2 samples.

Results

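Alternative internal promoters are transcript starts that lie well inside a gene. Here they were every annotated start of a protein-coding gene in GENCODE mouse release 21 (mm10) that lay over 5 kb downstream of the outermost start of its gene and over 2 kb from every start of any other gene. Starts within 500 bp of each other were merged, and a window of 500 bp on each side of the merged start was read. The rule gave 21629 internal starts in 9176 genes, out of 54116 merged starts of 21938 coding genes. No measured value entered the rule. The outermost start of the same 9176 genes was the comparison throughout.

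The data were DNase-seq of whole cerebellum from male B6CASTF1/J mice aged 8 to 10 months, an F1 hybrid of the C57BL/6J and CAST/EiJ strains without further genotype or treatment in the labels. In DNase-seq, nuclei are treated with the nuclease DNase I, which cuts open chromatin most. The 2 libraries formed 1 group, replicates 1 and 2, each from its own pool of 2 biosamples. The labels do not say whether the pools hold different mice, and they give both the same donor record. Part of the spread between replicates may therefore be technical. Both parental alleles were read together. In bulk tissue, a site open in few cells and a site weakly open in all cells cannot be told apart. The assay does not measure transcription, and a peak near a start may belong to the promoter or to another element inside the window.

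Genes with several promoters can start their RNA at different places, which changes the leading exon, the untranslated leader, the cell types that use the gene, and sometimes the N-terminus of the protein. Many brain genes are built this way. Neurexins have a distal promoter for the long form and an internal promoter for the short form, and Bdnf, Gnas, Pax6 and Pde4d each have a series of promoters. Promoters with many CpG dinucleotides tend to be open in most tissues, and promoters poor in CpG tend to be open in fewer.

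Sequence just before some of the internal starts named below held many or few CpG dinucleotides. The stretches below are the 150 bases before the merged start, 5' to 3', from the GRCm38 (mm10) reference, with capitals for bases inside footprints of both libraries. A footprint is a short stretch inside open chromatin that is protected from cutting, as called by the authors. Hdac4, Kat6b and Gpx4 were among the 12 internal starts with the highest mean peak signal. Dcun1d4 and Ndel1 had no peak at their outermost start. Bicdl1, Fgd4 and Galntl6 were among the 6 with the largest ratio of internal to outermost signal.
Hdac4, chr1:92180342-92180491, minus strand: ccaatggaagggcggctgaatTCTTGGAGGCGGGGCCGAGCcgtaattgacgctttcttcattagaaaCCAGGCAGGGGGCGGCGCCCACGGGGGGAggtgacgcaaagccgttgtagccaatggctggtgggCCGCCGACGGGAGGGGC
Kat6b, chr14:21500703-21500852, plus strand: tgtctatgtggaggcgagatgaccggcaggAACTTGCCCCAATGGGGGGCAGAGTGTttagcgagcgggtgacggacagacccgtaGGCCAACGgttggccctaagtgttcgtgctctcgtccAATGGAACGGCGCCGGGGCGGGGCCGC
Gpx4, chr10:80053338-80053487, plus strand: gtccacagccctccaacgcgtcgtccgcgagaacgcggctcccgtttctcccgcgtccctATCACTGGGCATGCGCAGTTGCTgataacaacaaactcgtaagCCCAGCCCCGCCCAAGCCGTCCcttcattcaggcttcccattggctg
Dcun1d4, chr5:73490875-73491024, plus strand: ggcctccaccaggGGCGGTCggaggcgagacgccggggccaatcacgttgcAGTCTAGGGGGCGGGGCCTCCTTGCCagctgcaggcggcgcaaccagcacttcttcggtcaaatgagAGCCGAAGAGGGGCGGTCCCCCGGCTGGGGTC
Ndel1, chr11:68853136-68853285, minus strand: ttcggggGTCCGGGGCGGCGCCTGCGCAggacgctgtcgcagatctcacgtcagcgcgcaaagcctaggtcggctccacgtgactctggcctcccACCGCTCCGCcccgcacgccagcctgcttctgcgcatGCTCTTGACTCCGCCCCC
Bicdl1, chr5:115652987-115653136, minus strand: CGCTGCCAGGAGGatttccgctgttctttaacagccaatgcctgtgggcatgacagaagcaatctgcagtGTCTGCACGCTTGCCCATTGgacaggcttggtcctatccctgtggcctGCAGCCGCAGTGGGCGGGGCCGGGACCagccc
Fgd4, chr16:16560220-16560369, minus strand: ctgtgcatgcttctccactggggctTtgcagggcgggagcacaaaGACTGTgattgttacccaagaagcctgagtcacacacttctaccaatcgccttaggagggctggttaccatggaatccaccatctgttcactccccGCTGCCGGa
Galntl6, chr8:57962565-57962714, minus strand: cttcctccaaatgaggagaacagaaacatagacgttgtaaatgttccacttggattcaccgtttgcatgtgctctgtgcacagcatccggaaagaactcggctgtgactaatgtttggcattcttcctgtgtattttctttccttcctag
The Hdac4, Kat6b, Gpx4, Dcun1d4 and Ndel1 stretches held between 13 and 18 CpG dinucleotides each in 150 bases, and Bicdl1, Fgd4 and Galntl6 held 6, 4 and 4. The SP and KLF box GGGCGGGG, read on both strands, lay in capitals in Kat6b, Gpx4, Dcun1d4 and Bicdl1, and the NRF1 motif in Ndel1. Over all 21629 internal starts, 2.59% of such 150-base stretches held the SP and KLF box and 0.273% the NRF1 motif, and over the outermost starts of the same genes 21.7% and 5.25%. Of the other motifs searched, Galntl6 held the nuclear factor I site TTGGCA, Fgd4 the E-box CAGATG and the AP-1 motif, and Dcun1d4 the NFY motif, all outside the capitals. Among all internal starts, 8.13% of such stretches held TTGGCA, 12.1% the E-box, 4.73% the AP-1 motif and 2.06% the NFY motif. Among the outermost starts these shares were 6.22%, 6.52%, 2.62% and 7.28%. Galntl6 had no base inside a footprint of both libraries in this stretch, although its window held 8 and 10 footprints. The Galntl6 start lies inside an exon of another transcript of the gene.

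Most internal starts were closed in cerebellum. A peak of the shorter of the authors' 2 peak lists lay in 2025 of 21629 windows in replicate 1 (9.36%) and in 2010 in replicate 2 (9.29%), a mean of 9.33% ± 0.049 (SD, n = 2). Both replicates had a peak at 1630 of them (7.54%), in 1257 genes. At the outermost start of the same genes the shares were 66.8% and 65%, and 63.7% in both. Over all merged starts of coding genes, which include the internal ones, 31%, 30.2% and 28.2% had a peak in replicate 1, replicate 2 and both. Over the outermost starts of all 21938 coding genes these shares were 52.3%, 50.8% and 49.5%. An internal start was thus open far less often than the outermost start, by a margin many times the difference between replicates.

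Internal starts were still open more often than the rest of their genes. The rest was taken as all 615354 windows of 1001 bp on a fixed grid in the same 9176 genes, over 5 kb from the outermost start and with their centre over 2 kb from every annotated start. Of these, 2.01% and 2.65% held a peak in replicates 1 and 2, and 1.56% in both. Footprints gave the same order. They lay in 11.9% and 11.4% of internal windows (9.33% in both), in 69.8% and 67% of outermost windows (65.8% in both), and in 2.91% and 3.41% of gene-body windows (2.16% in both). Over all merged starts the footprint shares were 34.2%, 32.7% and 30.7% in replicate 1, replicate 2 and both, and over the outermost starts of all coding genes 55.3%, 52.9% and 51.7%. The 95% Wilson intervals, which cover counting error only, did not overlap between the 3 kinds of window in either replicate. No test was made, since starts of 1 library are not replicates and the study has 1 group.

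The replicates shared fewer internal peaks than outermost ones. Of internal starts open in replicate 1, 80.5% were open in replicate 2, and 81.1% the other way round. For outermost starts these shares were 95.4% and 98.0%. Internal starts open in only 1 replicate had a low signal, with medians of 0.778 in replicate 1 and 0.680 in replicate 2, against 2.42 and 1.79 for those open in both. The signal is the authors' own value per peak, on a scale not given in the sources used here, and it was read within a library. Neither peak list had a peak in either replicate at 18277 internal starts. There 0.668% and 0.914% of windows held any base at which the deposited false discovery rate of the cut rate was under 0.05. At the 2486 outermost starts without a peak of either list, these shares were 3.66% and 3.26%. The windows were picked for having no peak in the same libraries, so low shares follow largely from the choice.

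**Figure D1:**
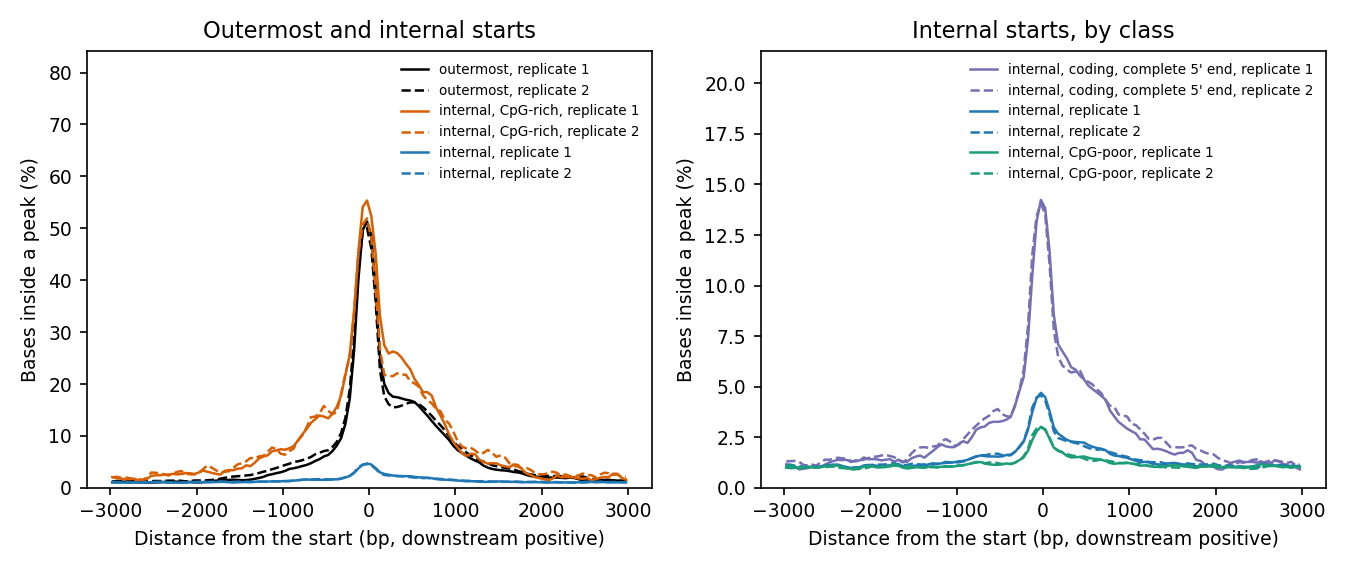
Share of bases inside a peak (%, vertical axis) against distance from the start (bp, downstream positive, in bins of 50 bp), for solid replicate 1 and dashed replicate 2. Internal starts reached 4.70% and 4.58% at the bin centred 25 bp upstream, and outermost starts 51.3% and 50.04% at the same place, while CpG-rich internal starts reached 55.3% and 51.9%.

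Over all internal starts, open chromatin was densest next to the start. The share of bases inside a peak was highest in the bin centred 25 bp upstream, at 4.70% in replicate 1 and 4.58% in replicate 2, and 1.06% in both beyond 2 kb. That was 4.42 and 4.30 times the level beyond 2 kb, against 36.8 and 31.5 times at the outermost starts. Coding starts with a complete 5' end, among the internal ones, reached 14.2% and 14.1%. Footprinted bases had their maximum in the same bin, at 1.62% and 1.52%, which was 5.23 and 5.36 times the level beyond 2 kb.

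Peaks at internal starts were weaker and less well centred than at outermost starts. The strongest peak in an open internal window had a median signal of 1.91 in replicate 1 and 1.47 in replicate 2, against 4.98 and 3.45 at open outermost windows and 1.27 and 0.951 at open gene-body windows. A peak covered the start itself in 50.4% and 49.3% of open internal windows and in 76.1% and 75.2% of open outermost ones. The median open internal window held 5 footprints in each replicate, the median open outermost window 9 and 8, and the median open gene-body window 3 and 3. Neighbouring windows can hold the same peak, and the open internal windows drew on 1885 and 1881 different strongest peaks.

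The share of open internal starts differed widely with CpG content. A window counted as CpG-rich where GC content was at least 50% and the observed-to-expected CpG ratio at least 0.6. Only 695 of 21629 internal windows (3.21%) were CpG-rich. Of those, 80.1% and 74.1% had a peak in replicates 1 and 2, against 7.01% and 7.14% of the 20934 CpG-poor ones. The 5325 CpG-rich outermost windows had a peak in 92.0% and 89.5%, and the 3851 CpG-poor ones in 31.9% and 31.2%. CpG-rich internal starts were thus open somewhat less often than CpG-rich outermost starts, with intervals of 77.02% to 82.9% against 91.2% to 92.7% in replicate 1. CpG content without a start nearby went with a lower share: of 436 CpG-rich gene-body windows, 14.2% and 10.8% had a peak.

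**Figure D2:**
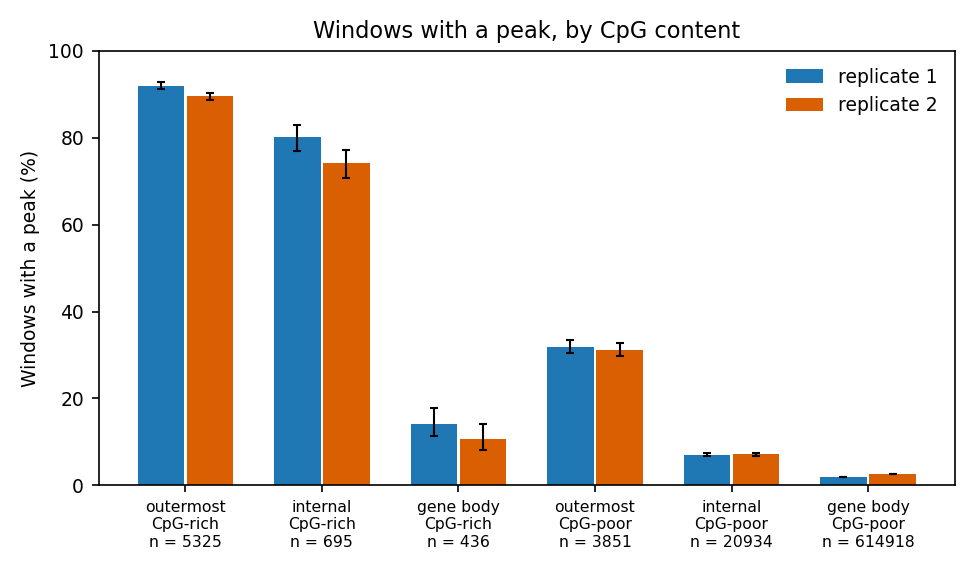
Windows with a peak (%, vertical axis) for outermost starts, internal starts and gene-body windows away from starts, split by CpG content, with blue bars for replicate 1 and orange bars for replicate 2. Error bars are 95% Wilson intervals over windows, and the number of windows stands under each pair of bars. CpG-rich internal starts stood at 80.1% and 74.1% and CpG-poor ones at 7.01% and 7.14%.

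Although rare, CpG-rich starts made up 507 of the 1630 internal starts open in both replicates (31.1%). Their peaks were stronger, with median signals of 3.73 and 2.55 against 1.51 and 1.21 at CpG-poor open starts, and they held a median of 8 footprints in each replicate against 4. The peak covered the start in both replicates at 61.5% of these CpG-rich starts and at 39.7% of the 1123 CpG-poor ones. Repeats went the other way. Where at least 50% of the window was repeat sequence, 8 and 10 of 690 internal starts were open (1.16% and 1.449%). These shares were below those of all gene-body windows in each replicate, with intervals that reached up to 2.27% and 2.65%. The gene-body windows were not split by repeat content, so this does not compare repeat with repeat.

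The kind of transcript that starts at the site also went with openness. Internal starts of protein-coding transcripts with a complete 5' end had a peak in 23.1% and 23.0% (n = 4823). Coding transcripts annotated as incomplete at the 5' end, whose true start is unknown, had one in 4.72% and 4.97% (n = 2754). Shares were 4.22% and 4.83% for transcripts subject to nonsense-mediated decay (n = 1160), 5.08% and 4.72% for retained introns (n = 8116), and 6.72% and 6.85% for other non-coding transcripts (n = 4776). Complete coding starts were 22.3% of internal starts and 59.9% of those open in both replicates. Among CpG-poor windows alone, complete coding starts had a peak in 14.5% and 15.3%, and incomplete ones in 4.49% and 4.78%.

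**Figure D3:**
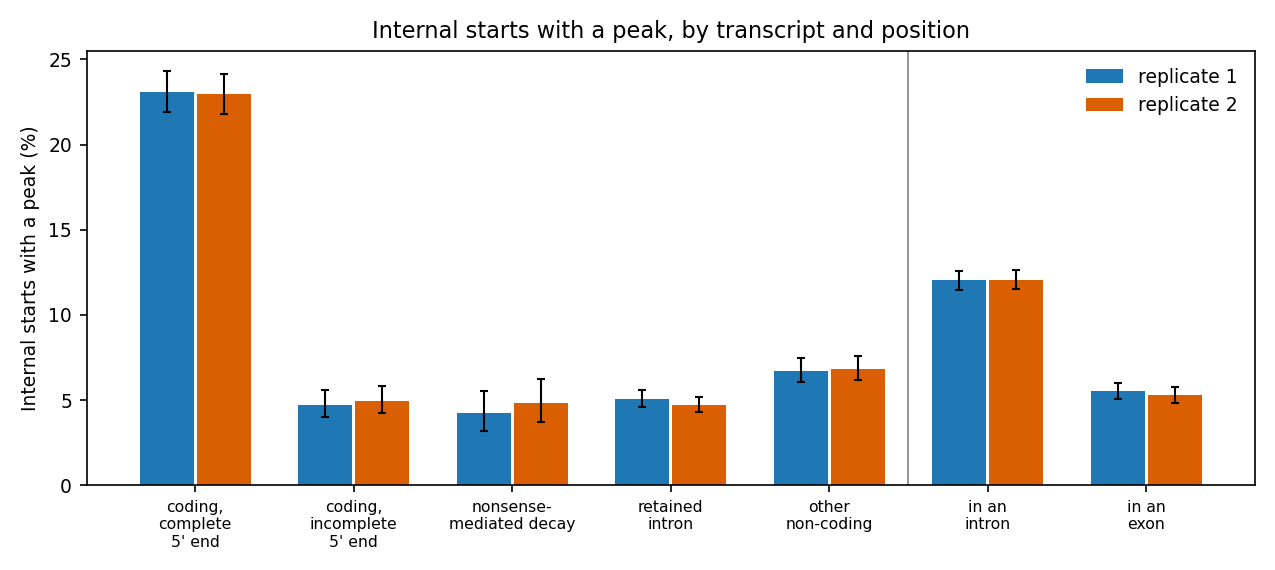
Internal starts with a peak (%, vertical axis) by the kind of transcript that starts there, and, right of the grey line, by whether the start lies in an intron or an exon of the gene's other transcripts. Blue bars are replicate 1, orange bars replicate 2 and error bars 95% Wilson intervals over starts. Coding transcripts with a complete 5' end stood at 23.1% and 23.0%, and the other 4 kinds of transcript between 4.22% and 6.85%.

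Openness also differed with the place in the gene and the support for the transcript. Starts in an intron of the other transcripts of the gene were open in 12% and 12.1% (n = 12753), and starts inside an exon in 5.53% and 5.30% (n = 8876). Starts at transcript support level 1, the best level, were open in 19.2% and 18.9%, and those at levels 2, 3 and 5 in between 5.90% and 7.62%. Where 3 or more transcripts began at the merged start, 40.3% and 40.1% were open (n = 1210), against 6.27% and 6.30% with 1 transcript (n = 17761). Internal coding starts that bring their own start codon, and so could change the N-terminus, were open in 27.5% and 27.6% (n = 2040). Those that share a start codon with the outermost transcripts were open in 17.5% and 17.0% (n = 2268).

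Distance from the outermost start made less difference. Starts 5 to 10 kb downstream were open in 12% and 11.4%, those 20 to 50 kb downstream in 8.20% and 8.00%, and those over 100 kb downstream in 9.19% and 10.1%. CpG-rich starts over 100 kb downstream were open in 78.4% and 67.6%. At the 5 kb threshold of the rule, starts 4 to 5 kb downstream, just outside it, were open in 12.5% and 12.6%, and starts 5 to 6 kb downstream, just inside it, in 13.1% and 12.2%. At the 2 kb threshold, starts 1 to 2 kb from another gene were open in 12.8% in each replicate, and starts 2 to 3 kb away in 10.4% and 11.1%.

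Genes differed in which end was open. A peak at an internal start and none at the outermost start was found in 557 of the 9176 genes in replicate 1 and 581 in replicate 2 (mean 569 ± 17.0, SD, n = 2), and 477 genes did so in both. Peaks at both kinds of start were found in 934 and 905 genes, at the outermost start alone in 5194 and 5063, and at neither in a mean of 2559. The outermost start was CpG-rich in 11.7% of the 477 genes open only inside, in 13.7% of the 2352 genes open at neither end in both replicates, and in 82.2% of the 4816 genes open only at the outermost start in both. An internal start was CpG-rich in 49.9%, 2.55% and 0.498% of these genes, respectively. A CpG-poor outermost start was thus common to both kinds of gene without a peak there, and a CpG-rich internal start was more frequent in the genes open inside. The outermost start of the 477 genes was non-coding in 17.8% and had support level 1 in 47.2%, against 6.08% and 62.0% of the 2352 and 1.97% and 89.8% of the 4816.

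Among all genes, 2486 of 9176 had no peak of either list at the outermost start in either replicate. These genes held 5013 internal starts, of which 536 (10.7%) in 404 genes (16.3%) were open in both replicates, against 7.54% of all internal starts and 13.7% of all 9176 genes. The 12 strongest of them were in Kat6b, Aktip, Gpx4, Glo1, Dcun1d4, Iffo2, Ndel1, Rbpj, Stag1, Ppp2r5a, Snd1 and Por, and all but Glo1 were CpG-rich by the rule above.

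Kat6b, a histone acetyltransferase, had an internal start 19.4 kb downstream with a peak signal of 17.8 in replicate 1 and 15.8 in replicate 2, 21 footprints in each, and no peak or footprint at its outermost start. Gpx4, which reduces lipid hydroperoxides and protects cells from ferroptosis, had 17.0 and 12.5 at a start 6.32 kb downstream, where its outermost start, of a non-coding transcript, had neither peak nor footprint. Glo1, which detoxifies methylglyoxal, had 16.9 and 11.98 at 14.2 kb. These genes were picked for a strong internal peak and no peak of either list at the outermost start, so both features are by choice. The outermost window of Glo1, like those of Kat6b and Gpx4, also held no footprint.

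Rbpj, the DNA-binding effector of Notch signalling, had signals of 13.5 and 10.6 at a start 124 kb downstream with its own start codon. Ndel1, a partner of Lis1 in the control of dynein, had 15.0 and 10.2 at 18.7 kb. Stag1, a subunit of cohesin, had 13.4 and 9.30 at 45.7 kb. Snd1, a staphylococcal nuclease domain protein, had 11.6 and 10.3 at 5.21 kb, and Por, the electron donor of microsomal cytochrome P450 enzymes, 11.4 and 10.3 at 19 kb. Ppp2r5a, a regulatory subunit of protein phosphatase 2A, had 12.8 and 9.25 at 6.23 kb, and its outermost start is that of a retained-intron transcript. At every one of these genes the outermost window was CpG-poor. Signals of the 2 libraries may not share a scale, since the median peak of the whole library had 1.40 in replicate 1 and 0.961 in replicate 2.

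The strongest internal peak of all was in Hdac4, a class IIa histone deacetylase, at 20.01 and 14.4, with 127 CpG dinucleotides in the window. Its outermost start, of a non-coding transcript 15.4 kb upstream, had 3.005 and 3.15. Sp2, a zinc finger protein of the SP family, had 14.2 and 15.1 inside and 3.55 and 2.39 outside. Of the 12 strongest, only Glo1, Unc5b and Bicdl1 were CpG-poor. Unc5b, a netrin receptor, had 14.1 and 13.1 at the start of a non-coding transcript with 20 CpG dinucleotides, and its CpG-rich outermost start also had a peak, of 5.88 and 3.07.

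**Figure D4:**
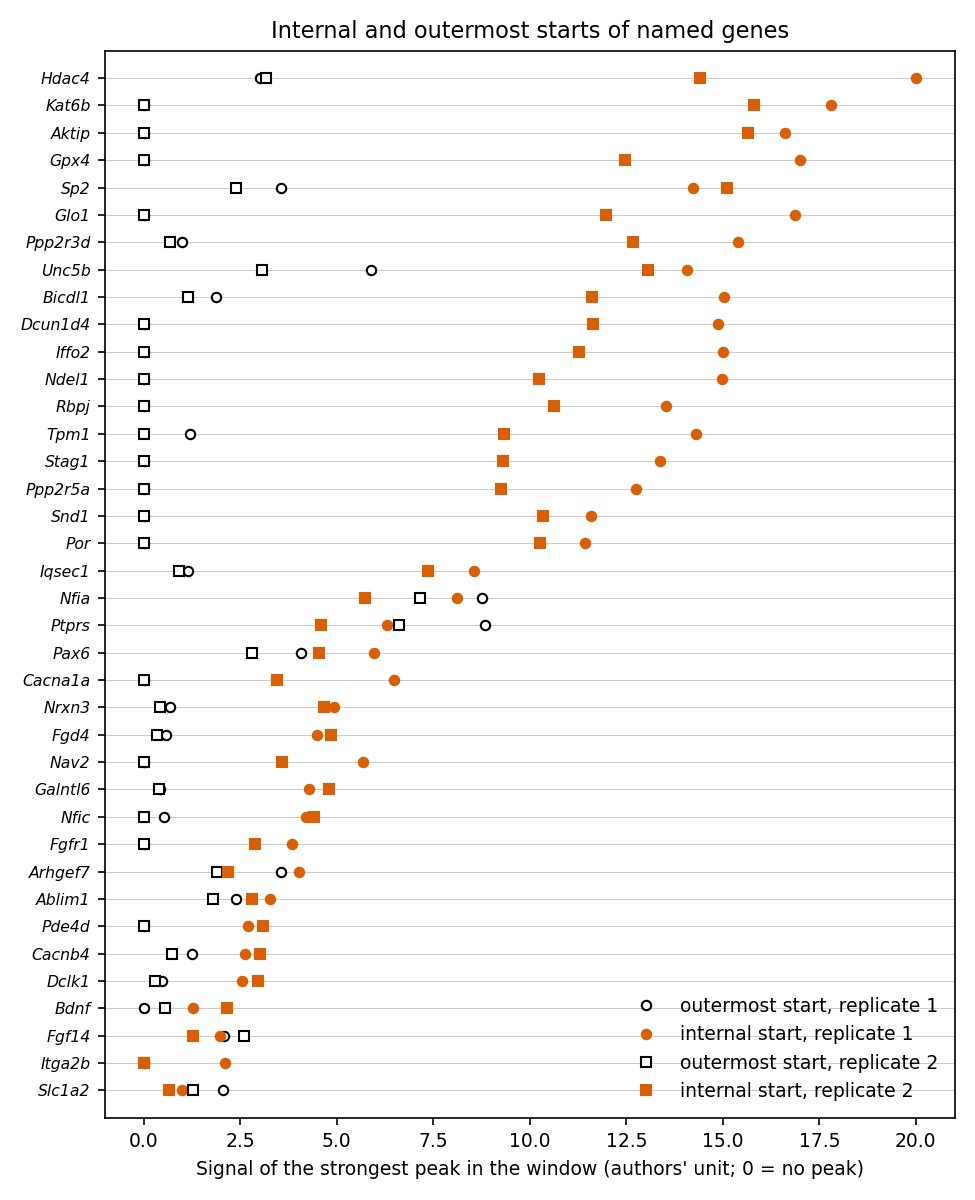
Signal of the strongest peak in the window (authors' unit, horizontal axis, 0 for no peak) at the internal start (orange) and the outermost start (open black symbols) of the named genes, circles for replicate 1 and squares for replicate 2. Hdac4 stood at 20.01 and 14.4 inside, and genes such as Kat6b, Gpx4 and Rbpj at 0 outside, while Nfia and Ptprs had higher values outside than inside in both replicates. The genes were chosen for their internal signal or their list, so the excess of orange over black is by choice.

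Where both windows of a gene held a peak, the internal one was usually the weaker. The median log2 ratio of internal to outermost signal was -1.06 over 1261 pairs in replicate 1 and -1.04 over 1199 in replicate 2. In 903 pairs with a peak at both ends in both replicates, the internal peak was lower in both replicates in 593, higher in both in 221, and split in 89. A gene with several open internal starts gave a pair for each, against the same outermost peak. Neighbouring starts can also share a peak, so the pairs are not independent. CpG content at each end went with the ratio. With a CpG-poor internal and a CpG-rich outermost window the median was -1.62 and -1.49 (720 and 730 pairs). With the reverse it was 0.54 and 0.46 (92 and 75 pairs), the only one of the 4 combinations with a median above 0 in both replicates.

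The 6 pairs with the largest ratio were in Ppp2r3d, Galntl6, Fgd4, Bicdl1, Nrxn3 and Iqsec1, and were chosen for it. Ppp2r3d, a regulatory subunit of protein phosphatase 2A, had 15.4 and 12.7 inside against 0.978 and 0.676 outside, log2 ratios of 3.98 and 4.23. Its outermost transcript is annotated as incomplete at the 5' end. Galntl6, of the family of enzymes that start O-linked glycosylation, had 4.27 and 4.804 at a start 950 kb downstream against 0.414 and 0.392. Fgd4, an exchange factor for the GTPase Cdc42, had 4.497 and 4.86 against 0.585 and 0.341. Bicdl1, a dynein adaptor, had 15.0 and 11.6 against 1.86 and 1.15. Iqsec1, an exchange factor for Arf GTPases, had 8.54 and 7.36 against 1.16 and 0.904. Except in Ppp2r3d, these internal windows were CpG-poor, and the outermost windows of Galntl6, Bicdl1 and Iqsec1 were CpG-rich.

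Transcription factor motifs inside footprints differed between the ends of genes. Each motif was a fixed string of bases, searched on either strand with no mismatch allowed, and a window counted where the middle base of a match lay inside a footprint of that library. The 17 searched were those of NRF1, CTCF, MEF2, RFX and KAISO, the full nuclear factor I site, CREB and ATF TGACGTCA, SP and KLF GGGCGGGG, ETS CCGGAAGT, NFY CCAATCA, YY1 AAGATGGC, the simple nuclear factor I site TTGGCA, the NEUROD1 and ATOH1 E-box CAGATG, AP-1 TGANTCA, ZIC CAGCAGG, ROR TAGGTCA and the TATA box TATAAA. Those of 10 or more letters are given by name. A full nuclear factor I site, an inverted pair of TTGGC around a spacer, also holds TTGGCA where the spacer begins with A or ends with T. Windows open in both replicates were compared, and a match says nothing of which protein was bound.

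At CpG-rich starts, the SP and KLF box and NRF1 led at both ends of the gene. The SP and KLF box lay in a footprint in 40.8% and 38.1% of 507 open CpG-rich internal windows and in 46.6% and 43.5% of 4740 outermost ones. NRF1 followed with 10.8% and 10.7% against 16.3% and 16.3%, and the ETS motif was at 1.97% and 2.17% against 5.76% and 5.59%. Each of these 3 was lower at the internal starts in both replicates, although for the SP and KLF box the intervals overlapped at their edges in both replicates (36.6% to 45.2% and 45.1% to 48.0% in replicate 1). Over all windows of 1001 bp, open or not, 7.58% of internal and 42.2% of outermost ones held the SP and KLF box, and 0.823% and 11.2% the NRF1 motif. Among the open CpG-rich windows alone, 58.6% of internal and 58.4% of outermost ones held the SP and KLF box. There 12.4% and 19.2% held the NRF1 motif, and 7.30% and 13.1% the ETS motif.

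**Figure D5:**
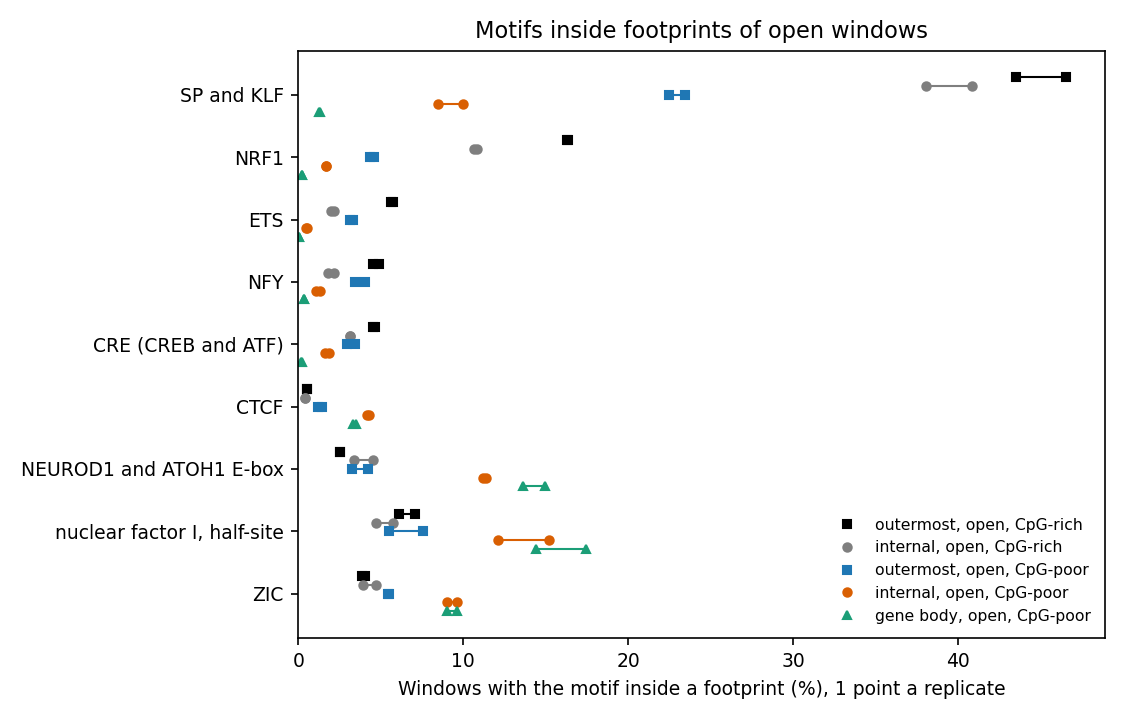
Open windows with the motif inside a footprint (%, horizontal axis), 1 point for each replicate and a line joining the 2, for 9 of the motifs and 5 kinds of window. The CpG-poor internal starts (orange) stood next to the gene-body windows (green) for CTCF, the E-box, nuclear factor I and ZIC, and between the gene-body and outermost windows (blue) for SP and KLF, NRF1, ETS, NFY and the CREB and ATF motif.

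CpG-poor internal starts carried another set. The E-box CAGATG, recognised by the neuronal factors NEUROD1 and ATOH1, lay in a footprint in 11.2% and 11.4% of 1123 open CpG-poor internal windows, in 3.25% and 4.24% of 1108 such outermost windows, and in 13.6% and 15.0% of 9554 such gene-body windows. CTCF, which anchors chromatin loops, did so in 4.19% and 4.27%, in 1.44% and 1.17%, and in 3.47% and 3.32%. Nuclear factor I TTGGCA did so in 12.1% and 15.2%, in 5.51% and 7.58%, and in 14.4% and 17.4%. ZIC, a family of zinc finger factors of granule neurons, did so in 8.99% and 9.62%, in 5.51% and 5.42%, and in 9.64% and 9.01%. For these 4 motifs the internal starts stood near the gene-body windows and above the outermost starts, with 95% intervals that did not overlap those of the outermost starts in either replicate. In all windows of 1001 bp, open or not, the E-box was held by 57.3% of internal and 39.7% of outermost ones. CTCF was held by 0.569% and 0.730%, TTGGCA by 42.4% and 33.6%, and ZIC by 30.2% of each. Among the open CpG-poor windows alone, the E-box was held by 61.3% of internal, 45.2% of outermost and 66.1% of gene-body ones. There CTCF was held by 4.63%, 1.71% and 4.03%, TTGGCA by 49.2%, 39.6% and 53.5%, and ZIC by 41.8%, 34.0% and 38.1%.

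The SP and KLF box and NRF1 were in between. The SP and KLF box was footprinted in 9.97% and 8.46% of CpG-poor internal windows, in 23.5% and 22.5% of outermost and in 1.34% and 1.25% of gene-body windows. NRF1 was footprinted in 1.69% of internal windows in each replicate, against 4.60% and 4.33% and 0.209% and 0.199%. Where the peak covered the start in both replicates (446 windows), the SP and KLF box reached 15.5% and 13.5%, and where it lay beside the start (677 windows) 6.35% and 5.17%. Split by the kind of transcript, the SP and KLF box stood at 16.1% and 13.4% in the 523 CpG-poor windows of complete coding starts. In the 600 of other transcripts it stood at 4.67% and 4.17%. CTCF had the reverse order for the kind of transcript. It was footprinted in 1.53% and 1.34% of the 523 windows and in 6.5% and 6.83% of the 600.

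The remaining motifs were footprinted in few CpG-poor internal windows. NFY CCAATCA was found in a footprint in 1.07% and 1.34%, and the CREB and ATF motif in 1.60% and 1.87%. The TATA box was held by 29.1% of these windows but footprinted in 0.267% in each replicate, against 0.361% and 0.451% of outermost and 0.461% and 0.555% of gene-body windows. YY1 was footprinted in 0.267% and 0.178%, against 1.71% and 1.90% and 0.712% and 0.691%. Both thus had lower shares at the internal starts than in either other kind of window, but these rest on few windows. The internal windows numbered 3 and 3 for the TATA box and 3 and 2 for YY1. For the TATA box the 95% intervals of the internal starts overlapped those of both other kinds of window. For YY1 they overlapped those of the gene-body windows but not those of the outermost ones. ROR was footprinted in 0% and 0.0890%. AP-1, MEF2, RFX and the full nuclear factor I site were each under 1% in these windows. KAISO was in none of the 1123 windows.

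The labelled tissue was checked at the starts of marker genes. Of 10 genes of cerebellar neurons, 8 had a peak in each replicate, among them the granule cell genes Gabra6, Fat2, Neurod1 and Cbln3. The Purkinje cell genes Pcp2 and Car8 had none, and Calb1 had 0.428 and 0.386. Of 8 genes of forebrain, liver, heart and kidney, 0 had a peak in replicate 1 and 1 in replicate 2.

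Hand-made lists of genes, 7 in all, gave different shares of open internal starts, to be read against 7.54% of all internal starts open in both replicates. Transcription factors and cofactors had the highest share, with 35 of 132 internal starts (26.5%) in 15 of 27 genes. Genes of the cytoskeleton and membrane skeleton had 33 of 184 (17.9%), ion channels and receptors 13 of 88 (14.8%), synaptic adhesion 14 of 99 (14.1%), neurotrophic and neuregulin signalling 7 of 59 (11.9%), and kinases, phosphodiesterases and GTPase regulators 16 of 153 (10.5%). Genes of glia, vessels and blood had 1 of 48 (2.08%). The median signal of the starts open in both was 2.44 for the transcription factors and 1.27 for neurotrophic signalling, against 2.13 over all 1630. Of the lists, 6 are named for a function and hold genes such as Trp63 and Egfr beside neuronal ones. Many of their genes are known for alternative promoters. CpG-rich starts numbered 17, 10, 10, 13, 7, 4 and 2 in the lists, in the order above, against 695 of all 21629 internal starts. The shares describe these lists only.

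Among transcription factors, Pax6, which granule cells and their precursors express, had 8 of 10 internal starts open in replicate 1 and 7 in replicate 2, the highest number open in both of any gene. Its strongest internal start, 6.21 kb downstream and CpG-rich, had 5.97 and 4.54, above the outermost start at 4.07 and 2.81. Another 4 of the open Pax6 starts lay 11.0 to 14.9 kb downstream, were CpG-poor and had signals between 0.790 and 1.51, and a pair of them shared 1 peak. The nuclear factor I genes were open inside as well. Nfia had 8.12 and 5.73 at the start of a non-coding transcript 138 kb downstream and 8.75 and 7.16 at the outermost start. Nfic had 3 of 3 internal starts open with no peak outside in replicate 2. Nfib had 3.93 and 2.28 at a CpG-rich internal start with no peak outside.

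Rora, a nuclear receptor that Purkinje cells need to mature, had 3.66 and 2.54 at a CpG-rich start 636 kb downstream, above 1.91 and 1.33 at the outermost start. Esrrg had 1.08 and 0.727 inside and no peak outside. Mef2c, a MADS-box factor of neurons, had 3 of 11 internal starts open in both replicates, a pair of them from 1 peak, with signals of 0.942 to 1.43 and no peak outside. Foxp1 and Foxp2 had none of 12 and none of 6 internal starts open in either replicate. Of all internal starts only 11.1% were open in either replicate, so none among so few is not far from that share. Nr3c1, the glucocorticoid receptor, had 4 of 5 internal starts open in both replicates, 4 of the 5 CpG-rich, and no peak at its outermost start. Tcf4, an E protein, had 4 of 17 open in both and none outside.

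Among synaptic adhesion genes, Nrxn3, a presynaptic neurexin, had 4.92 and 4.68 at a CpG-poor coding start 1090 kb downstream. At its outermost start, which belongs to a transcript subject to nonsense-mediated decay, the values were lower, 0.671 and 0.430. In Nrxn2 the open internal start was CpG-rich and had 4.08 and 2.78, below the outermost start at 8.29 and 5.77. The internal start was thus the stronger one in Nrxn3 and the weaker one in Nrxn2, in both replicates. Ptprs, a receptor tyrosine phosphatase of the presynapse, had 6.30 and 4.60 inside and 8.85 and 6.61 outside. Opcml, a neuronal adhesion protein of the immunoglobulin family, had 2.26 and 2.83 at a CpG-rich start 613 kb downstream and no peak outside. The latrophilin genes Adgrl1, Adgrl2 and Adgrl3 had no open internal start among 5, 8 and 6, where 11.1% of all internal starts were open in either replicate.

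Among channels and receptors, Cacna1a, the P/Q-type calcium channel of Purkinje and granule cells, had 6.48 and 3.46 at a CpG-rich start 251 kb downstream. That internal start belongs to a non-coding transcript. The outermost start of Cacna1a, of a retained-intron transcript, had no peak. Cacnb4, a calcium channel beta subunit, had 2.63 and 3.02 inside and 1.24 and 0.721 outside. Kcnip4, a Kv4 channel partner, had 3 of 5 internal starts open in both replicates, at 239, 635 and 925 kb, with signals of 0.563 to 0.935, below its outermost start at 3.68 and 2.72. Itpr1, the inositol trisphosphate receptor of Purkinje cells, had 1 of 10 open, with 1.96 and 0.961 against 8.28 and 7.24 outside.

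Among kinases and phosphodiesterases, Pde4d, which degrades cyclic AMP, had 3 of 13 internal starts open in both replicates and no peak outside. The outermost start of Pde4d belongs to a non-coding transcript. Its strongest internal start, 666 kb downstream, had 2.71 and 3.08. Dclk1, a microtubule-binding kinase, had 2.54 and 2.95 at 219 kb against 0.471 and 0.297 outside. Gnas, which codes for the stimulatory G protein alpha subunit and is imprinted, had 3 of 5 internal starts open in both replicates, at 43.2, 45.7 and 60.3 kb, and no peak at the outermost start. Arhgef7, an exchange factor for Rac, had 4.01 and 2.18 inside and 3.56 and 1.91 outside, log2 ratios of only 0.17 and 0.19. Camk2d and Kalrn had none of 10 and none of 11 internal starts open, where 11.1% of all internal starts were open in either replicate. Their outermost starts had peaks of 8.94 and 6.35 and of 2.58 and 1.51.

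Cytoskeletal genes had many small internal peaks. Tpm1, a tropomyosin, had the strongest, at 14.3 and 9.34 at a CpG-rich start 5.44 kb downstream. Ank2, an ankyrin of axons, had 3 of 9 internal starts open, at 90.3, 273 and 500.9 kb, with signals of 1.10 to 3.09, against 1.10 and 0.778 outside. Ank3, the ankyrin G of axon initial segments, had 2 of 18 open, the stronger with 1.63 and 1.26 at 308 kb, and none outside. Dmd, the dystrophin gene, had 2 of 8 open, at 1128 and 2099 kb, with 0.485 and 0.354 at the nearer and 0.699 and 0.436 at the farther, and no peak outside. Add1 and Clasp1 had none of 6 and none of 13 open, where 11.1% of all internal starts were open in either replicate. Their outermost peaks were 9.28 and 6.71 and 7.84 and 7.12.

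In neurotrophic signalling, Bdnf, a neurotrophin with several promoters that respond to neuronal firing, had 2 of 5 internal starts open in replicate 1 and 4 in replicate 2, with 1.28 and 2.16 at the strongest, 19.7 kb downstream. Its outermost start had no peak in replicate 1 and 0.544 in replicate 2. At 2 of the 5 internal starts both replicates had a peak. Fgf14, which binds sodium channels and is mutated in a spinocerebellar ataxia, had 1.96 and 1.26 at its single internal start and 2.08 and 2.60 outside. Fgfr1 had 3.85 and 2.89 inside and none outside. In the list of glia, vessels and blood, Slc1a2, the glutamate transporter of astrocytes, had the only internal start open in both replicates. That start, of a non-coding transcript, had 0.978 and 0.664, against 2.04 and 1.28 outside. In this list 4 and 5 of 20 outermost starts had a peak, so these genes were mostly closed at both ends.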

How the data were processed

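DNase-seq libraries of cerebellum, 1 for each of 2 biological replicates as numbered in the labels, were used. For each, the authors deposited 2 peak lists with a signal value per peak, a table of intervals whose cut rate had a false discovery rate (FDR, q-value) under 0.05, and footprints that all carry the score 0.01. The assembly was mm10 per the labels, and each list was made from 1 library per the deposited file descriptions. Callers, versions, filters and numbers of reads: not given in the sources used here.

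Starts came from GENCODE mouse release 21, and sequences from the mm10 reference. Qualifying starts were merged from the 5' side. A peak or footprint counted with an overlap of 1 bp or more, and the shorter peak list was used. Intervals on shares are Wilson intervals at 95% and reflect counting error alone. The member rule and the counting were tested on simulated data. Python 3.11.15, numpy 2.4.6, pandas 2.3.3, scipy 1.17.1 and pysam 0.24.0 were used.

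Genes were named by rule: the 12 strongest internal starts open in both replicates, the 12 strongest among genes without a peak of either list at the outermost start, the 6 largest ratios, and in each of 7 lists the 3 strongest and up to 2 without any open internal start, first in the alphabet. Other list genes, and the marker genes of the tissue, were named after their values were seen. The members and lists were chosen with earlier results of these data known. Some genes that the rule names are not reported here.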

Additional observations from a re-analysis of the deposited data

How the results depend on the processing

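The mean share of internal starts with a peak, 9.33%, was 12.9% with the longer peak list, 5.98% with only the stronger peaks of the shorter list (those above its median signal), 7.72% and 11.8% with windows of 250 and 1000 bp on each side, and 8.76% when the middle of the peak had to lie in the window. It was 15.5% with coding transcripts only, 10.3% without incomplete 5' ends, 8.85% beyond 10 kb, 9.15% at over 5 kb from other genes, 9.46% where the outermost start also lay over 2 kb from other genes, and 8.96% with starts merged in chains. The outermost share, 65.9%, was 70.5%, 58.8%, 63.5% and 68.0% with the longer list, the stronger peaks and the shorter and longer windows, 59.3% with coding transcripts only, 68.4% beyond 10 kb, and 59.2% where the outermost start also lay over 2 kb from other genes. The footprint share, 11.6%, was 9.45% and 14.8% with the shorter and longer windows, 18.7% with coding transcripts only, 12.7% without incomplete 5' ends, 11.1% beyond 10 kb and 11.2% with chains. The median log2 ratio, -1.05, was -1.33 with the longer list, -0.65 with the stronger peaks, -0.99 and -1.08 with the shorter and longer windows, -0.70 with coding transcripts only, -1.01 without incomplete 5' ends, -1.02 beyond 10 kb and at over 5 kb from other genes, and -0.96 where the outermost start also lay over 2 kb away. The count of genes open only inside stayed within 1.5 times of 569 in all 13 alternatives. It ran from 383.5 with coding transcripts only to 609 with the longer list. The 383.5 came from 4675 genes, against 9176 genes in the main setting, so these counts do not share a denominator.

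Leaving out each replicate gave 9.29% to 9.36%, 65.0% to 66.8%, 11.4% to 11.9%, 557 to 581 genes, and -1.06 to -1.04. No alternative among those run brought the internal share to the outermost one. Each alternative changed the set of starts or what counted as a peak, and the cause of the remaining movement was not tested. No paired analysis was possible because the study has 1 group. Read depth is unknown here, so a closed start may be one whose opening was not detectable at this depth.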

Other observations

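Some genes had many internal starts open in both replicates, and the following were picked after their values were seen. Sept4, a septin, had 6 of 7 open and no peak of the shorter list at its outermost start. Cep170b, a centrosomal protein, had 5 of 5 open, and Dgkz, a diacylglycerol kinase, 5 of 6, also with no such peak at the outermost start. Slc29a1, an equilibrative nucleoside transporter, had 5 of 5 open, and Adam11, a brain protein of the ADAM family, 4 of 4, with outermost peaks of 1.11 and 0.714 and of 1.53 and 1.36. Cic, the transcriptional repressor capicua, had 9 of 10 open in replicate 1 and 5 in replicate 2, beside an outermost peak of 15.2 and 16.8. None of the internal starts of Sept4, Cep170b, Slc29a1 and Adam11 was CpG-rich. Neighbouring starts in such genes can share a peak.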
